A study of Homo sapiens with 6 samples.

Results

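Complex I (NADH:ubiquinone oxidoreductase) is the entry point of electrons from NADH into the mitochondrial respiratory chain. Its genes were taken as every probe set annotated with exactly 1 symbol that begins with NDUF or is ACAD9, ECSIT, NUBPL, TIMMDC1, TMEM126B or FOXRED1, and each gene was represented by its brightest probe set over the 6 arrays. This gave 50 genes of 18244, read by 110 of 49395 probe sets: 36 structural subunits and 14 assembly factors (the NDUFAF genes and the 6 genes named above).

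The study used A549, an established line of human lung adenocarcinoma, in 2 groups of 3 samples. KD cells carried a lentiviral short hairpin against MRPL35, which encodes a large-subunit protein of the mitochondrial ribosome, and NC cells a lentiviral control hairpin; both were cultured in RPMI-1640 with 10% serum. The source names of NC 2 and NC 3 carry another cell line number, while their characteristics give A549. The number of hairpin sequences, the time after transduction and whether cells were cloned are not given in the sources used here. Separate cultures within a group are not stated in the labels, so p-values reflect the spread among these samples alone, which may be technical. Arrays are written KD 1 to KD 3 and NC 1 to NC 3, and values for a group follow in that order. The arrays measure RNA of the whole culture, in which fewer expressing cells and less RNA per cell cannot be told apart.

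Complex I has the shape of an L. Its peripheral arm reaches into the matrix and holds the N module, which oxidises NADH at a flavin and passes electrons along iron-sulfur clusters, and the Q module, which hands them to ubiquinone. The membrane arm pumps protons, and its core is made from mitochondrial DNA by the mitochondrial ribosome, whereas the subunits and factors described here are nuclear genes translated in the cytosol. Assembly factors build and join the modules and are absent from the finished enzyme.

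The knockdown was visible in every KD array. The KD arrays 1 to 3 read 6.49, 6.44 and 6.56 for MRPL35 (log2 probe-set value), all far below the NC arrays at 8.16, 8.05 and 8.36. MRPL35 fell by 1.69 on the log2 scale (standard error, SE, 0.096, limma adjusted p = 3.77e-06). The first principal component over all genes carried 79% of the variance and separated the groups. NC 2 stood away from the rest on the next component (11.8%), so counts are also given without it. The 9 A549 markers had group means of 8.56 (CDH1 in NC) to 13.90 (KRT18 in KD). Of these, 7 rose (77.8%) at an adjusted p under 0.05 in limma's test over all genes. The share that rose was 17.6% of all genes and 28.8% of genes at least as bright as the dimmest complex I gene. An absolute log2 change of at least 1 was seen in 3 of the markers (33.3%), against 5.36% of all genes. The 4 leukocyte, 4 fibroblast and 3 endothelial markers had group means of 2.47 (PTPRC in KD) to 6.01 (CD14 in KD), of which CD14 alone passed. As a measure of RNA quality, the ACTB control read higher at its 3' than its 5' end by 0.63 ± 0.044 (SD, n = 3) in KD and by 0.58 ± 0.082 (SD, n = 3) in NC. For the GAPDH control this difference was 0.086 ± 0.035 (SD, n = 3) in KD and 0.012 ± 0.05 (SD, n = 3) in NC, and the part of RNA quality in the results was not tested.

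Subunit genes were more often higher than lower in KD, by small amounts. Of 36 subunits, 14 rose (38.9%), 2 fell (5.56%) and 20 did not pass, where passing means an adjusted p under 0.05 in limma's test over all 18244 genes. Among all genes 17.6% were called higher and 15.9% lower, 33.5% in all. Dim genes are called less often: among the 7291 genes at least as bright as the dimmest complex I gene, 28.8% were called higher and 26.9% lower. That dimmest gene is the factor NUBPL, and all subunits are brighter, so these shares are not matched to the level of the subunits. The median change of the subunits was 0.19 (log2 KD minus NC), a 1.14-fold higher level, against -0.018 over all genes, with a range from -0.48 to 0.65. With genes below the 40th percentile of level left out, the median over the remaining genes was 0.0072. No subunit and no factor changed 2-fold, which 5.36% of all genes did (an absolute log2 change of at least 1). All KD arrays lay above all NC arrays in 24 subunits (23.2% of all genes) and below them in 4 (21.5% of all genes).

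Assembly factors moved both ways. Of 14 factors 5 rose (35.7%), 3 fell (21.4%) and 6 missed the threshold. Of all genes 17.6% rose and 15.9% fell. Among genes at least as bright as the dimmest complex I gene 28.8% rose and 26.9% fell, so both directions were common there too. The median change of the factors was 0.079, with a range from -0.59 to 0.73. It turned to -0.014 with the mean of each gene's probe sets. The difference between the subunits and the factors was not tested. The largest rise and the largest fall of all 50 genes were both assembly factors, NUBPL and ECSIT. All KD arrays lay above all NC arrays in 7 factors (against 23.2% of all genes) and below them in 4 (against 21.5% of all genes). Without NC 2, 12 subunits rose and 2 fell, and 4 factors rose and 3 fell. Rising subunits numbered 7 with KD 2 left out, 8 with KD 3 left out and 9 with NC 1 left out, and falling subunits 1 with KD 1 left out. Over all genes, 2677, 2612 and 2839 rose without KD 2, KD 3 and NC 1, against 3207 with every array. Without KD 1, 2499 of all genes fell, against 2903 with every array. The number of falling factors was 1 without KD 1 or NC 3, and also 1 with the probe sets that can hybridise to several transcripts (suffix x_at or s_at) left out.

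**Figure D1:**
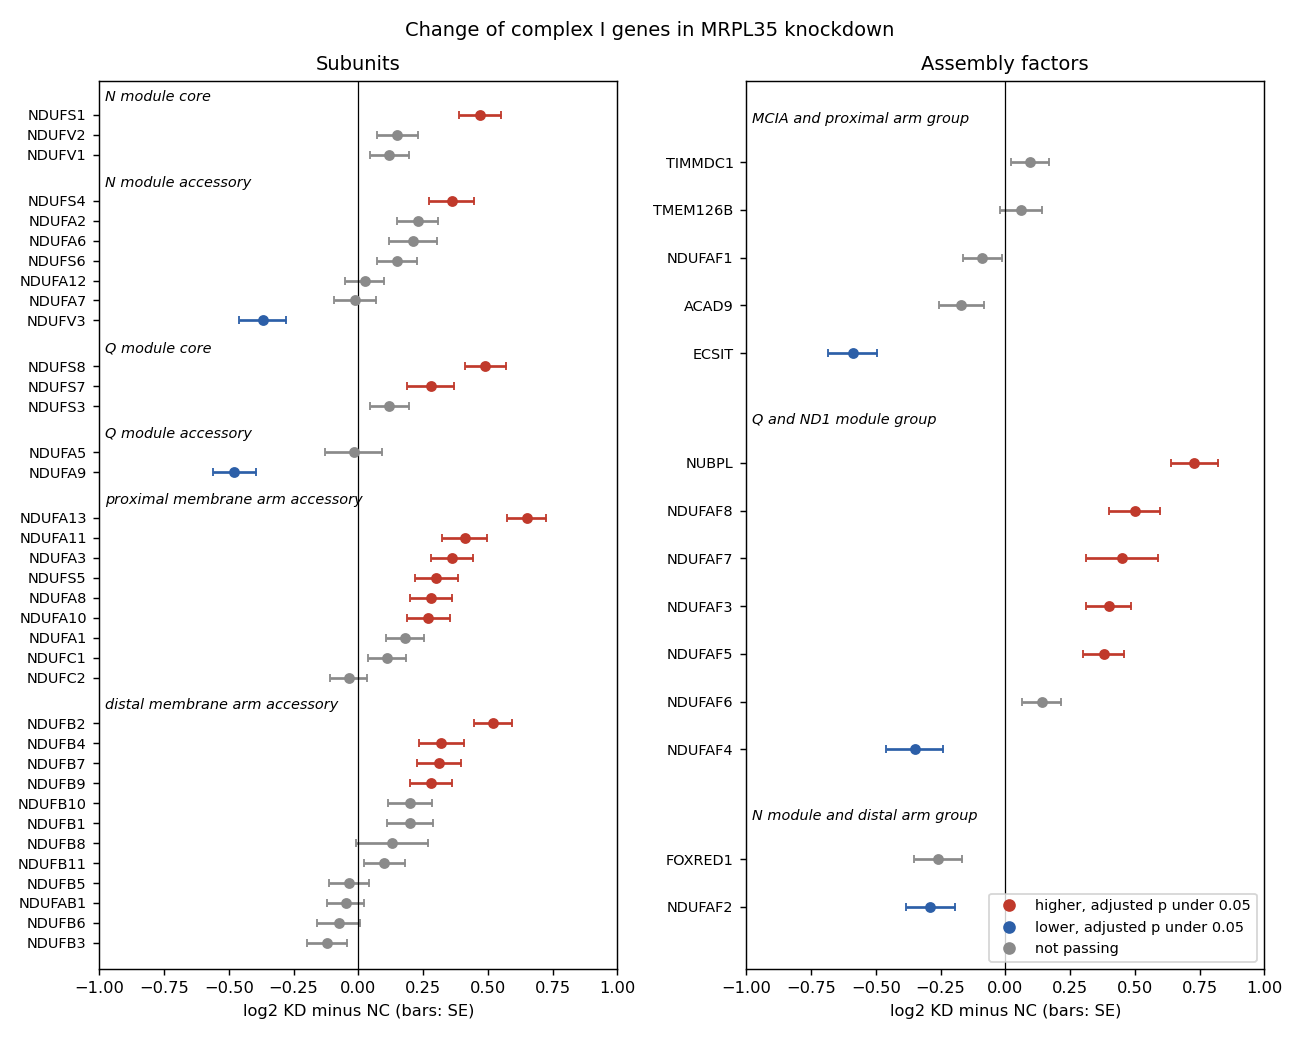
Change of each complex I gene in log2 KD minus NC on the horizontal axis, with its standard error, for 36 subunits (left) and 14 assembly factors (right) grouped by module; red genes were higher and blue genes lower at an adjusted p under 0.05, and grey genes did not pass. The red points of the subunits run across all modules but the Q module accessory subunits, and those of the factors lie within the Q and ND1 module group.

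Among the catalytic core subunits of the peripheral arm, 3 of 6 rose (50%) and 0 fell. In all 6 every KD array was above every NC array, against 23.2% of all genes. Of genes at least as bright as the dimmest complex I gene 28.8% rose and 26.9% fell. NDUFS1, the large iron-sulfur subunit of the N module, read 8.67, 8.80 and 8.80 in KD and 8.34, 8.2 and 8.32 in NC. The groups did not overlap, and NDUFS1 was 1.38-fold higher in KD (log2 change 0.47, SE 0.082, limma adjusted p = 0.00193). NDUFS8, which carries iron-sulfur clusters on the way to ubiquinone in the Q module, read 11.28, 11.40 and 11.36 in KD and 10.85, 10.79 and 10.93 in NC. Its lowest KD array was above its highest NC array, and it was 1.40-fold higher (0.49, SE 0.080, limma adjusted p = 0.00136). NDUFS7, the subunit with the last iron-sulfur cluster before ubiquinone, read 9.89, 9.81 and 9.85 in KD and 9.46, 9.52 and 9.73 in NC. It was 1.22-fold higher (limma adjusted p = 0.0410), a call that was lost without any 1 of the KD arrays, NC 1 or NC 2 (adjusted p 0.0637 to 0.134) and with median centring (0.0577). The other core subunits, the flavin-binding NDUFV1 (0.12), NDUFV2 (0.15) and NDUFS3 (0.12), did not pass (limma adjusted p = 0.279, 0.213 and 0.294).

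Accessory subunits of the peripheral arm included both falls. NDUFA9, which sits in the Q module at the junction with the membrane arm, read 9.33, 9.21 and 9.32 in KD and 9.67, 9.76 and 9.86 in NC. All KD arrays were below all NC arrays, and NDUFA9 fell by 0.48 (SE 0.083, limma adjusted p = 0.00197), a 1.39-fold lower level. NDUFV3, a small subunit of the N module with a short and a long protein form, read 8.52, 8.71 and 8.75 in KD and 8.97, 9.01 and 9.11 in NC. The groups did not overlap, and NDUFV3 fell by 0.37 (SE 0.091, limma adjusted p = 0.0121), a call that missed the threshold without KD 1 (adjusted p = 0.0514). Its other 2 probe sets also fell, by 0.49 and 0.34.

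NDUFS4, an N module subunit needed for a stable holoenzyme, moved the other way. It read 10.46, 10.38 and 10.43 in KD and 10.17, 9.93 and 10.09 in NC, without overlap, and was 1.28-fold higher (0.36, SE 0.087, limma adjusted p = 0.0111). NDUFA2 (0.23, limma adjusted p = 0.0554), NDUFA6 (0.21, 0.129) and NDUFS6 (0.15, 0.184) did not pass although their KD arrays were all above their NC arrays. The smallest changes among subunits that did not pass were in this arm: NDUFA7 at -0.013 (95% interval -0.20 to 0.17), NDUFA5 at -0.017 (-0.28 to 0.24) and NDUFA12 at 0.024 (-0.14 to 0.19).

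In the proximal part of the membrane arm, which joins the peripheral arm, 6 of 9 accessory subunits rose (66.7%) and 0 fell, with a median of 0.28. Among genes at least as bright as the dimmest complex I gene, the share called higher was 28.8% and the share called lower 26.9%. NDUFA13, also known as GRIM-19, rose most of all subunits. It read 10.83, 10.86 and 10.85 in KD and 10.15, 10.18 and 10.28 in NC. Its KD arrays lay within 0.03 of each other and far from the NC arrays, and it was 1.56-fold higher (0.65, SE 0.076, limma adjusted p = 0.000201). The call was lost with the mean of its probe sets (0.16, adjusted p = 0.186) and with x_at and s_at probe sets left out (0.01, adjusted p = 0.977). NDUFA11, a membrane subunit, read 11.63, 11.53 and 11.56 in KD and 11.09, 11.11 and 11.30 in NC. Again the groups were apart, and it was 1.33-fold higher (0.41, SE 0.087, limma adjusted p = 0.00544).

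NDUFA3, a small membrane subunit, read 11.37, 11.51 and 11.44 in KD and 11, 11.12 and 11.12 in NC, which is 1.29-fold higher (0.36, SE 0.081, limma adjusted p = 0.00734). NDUFS5 and NDUFA8 carry disulfide bonds and lie on the side facing the intermembrane space, and NDUFA10 lies on the matrix side. NDUFS5 read 11.03, 11.04 and 10.96 in KD and 10.77, 10.58 and 10.77 in NC, 1.24-fold higher (limma adjusted p = 0.0201). NDUFA8 read 10.97, 11.02 and 11.02 in KD and 10.74, 10.62 and 10.82 in NC, 1.21-fold higher (limma adjusted p = 0.0274). NDUFA10 read 10.03, 10.02 and 10.03 in KD and 9.69, 9.69 and 9.88 in NC, 1.21-fold higher (limma adjusted p = 0.0334). In none of the 3 did the groups overlap. These calls were lost in part of the arrays left out: NDUFS5 without KD 1 or KD 2 (adjusted p 0.0679 and 0.0784), NDUFA8 without any KD array or NC 1 (0.0632 to 0.0956), and NDUFA10 without any KD array, NC 1 or NC 2 (0.0533 to 0.104). NDUFA8 and NDUFA10 also lost their calls with median centring (adjusted p 0.0523 and 0.0550). The count of rising proximal subunits was 3 without KD 1 or KD 2. NDUFA1 (0.18), NDUFC1 (0.11) and NDUFC2 (-0.038) did not pass.

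In the distal part 4 of 12 accessory subunits rose (33.3%) and 0 fell, with a median of 0.16. This rising share was near the 28.8% of genes at least as bright as the dimmest complex I gene, of which 26.9% fell. NDUFB2 read 11.86, 11.87 and 11.89 in KD and 11.35, 11.32 and 11.39 in NC. It had narrow groups that did not overlap and was 1.44-fold higher (0.52, SE 0.072, limma adjusted p = 0.000512). NDUFB4 read 11.07, 11.15 and 11.13 in KD and 10.89, 10.66 and 10.83 in NC, 1.25-fold higher (limma adjusted p = 0.0180). NDUFB7 read 9.29, 9.47 and 9.46 in KD and 9.10, 9.03 and 9.16 in NC, 1.24-fold higher (limma adjusted p = 0.0208). NDUFB9, a member of the LYR family that binds acyl carrier protein, read 11.32, 11.44 and 11.44 in KD and 11.14, 11.04 and 11.17 in NC, 1.22-fold higher (limma adjusted p = 0.0242). The groups of these 3 genes were apart, with NC 2 the lowest NC array in each. All lost their calls without KD 2 or KD 3, and NDUFB7 and NDUFB9 also without NC 1 (adjusted p 0.0527 to 0.0983 over these fits), so that the distal count was 1, 1 and 2 without these arrays in turn. The remaining 8 ranged from -0.12 (NDUFB3) to 0.20 (NDUFB1 and NDUFB10). Among them was NDUFAB1, the mitochondrial acyl carrier protein, which also serves lipoic acid and iron-sulfur cluster synthesis: its KD arrays at 11.17, 11.19 and 11.19 were all below its NC arrays at 11.21, 11.23 and 11.26, and its change of -0.049 did not pass (limma adjusted p = 0.677).

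**Figure D2:**
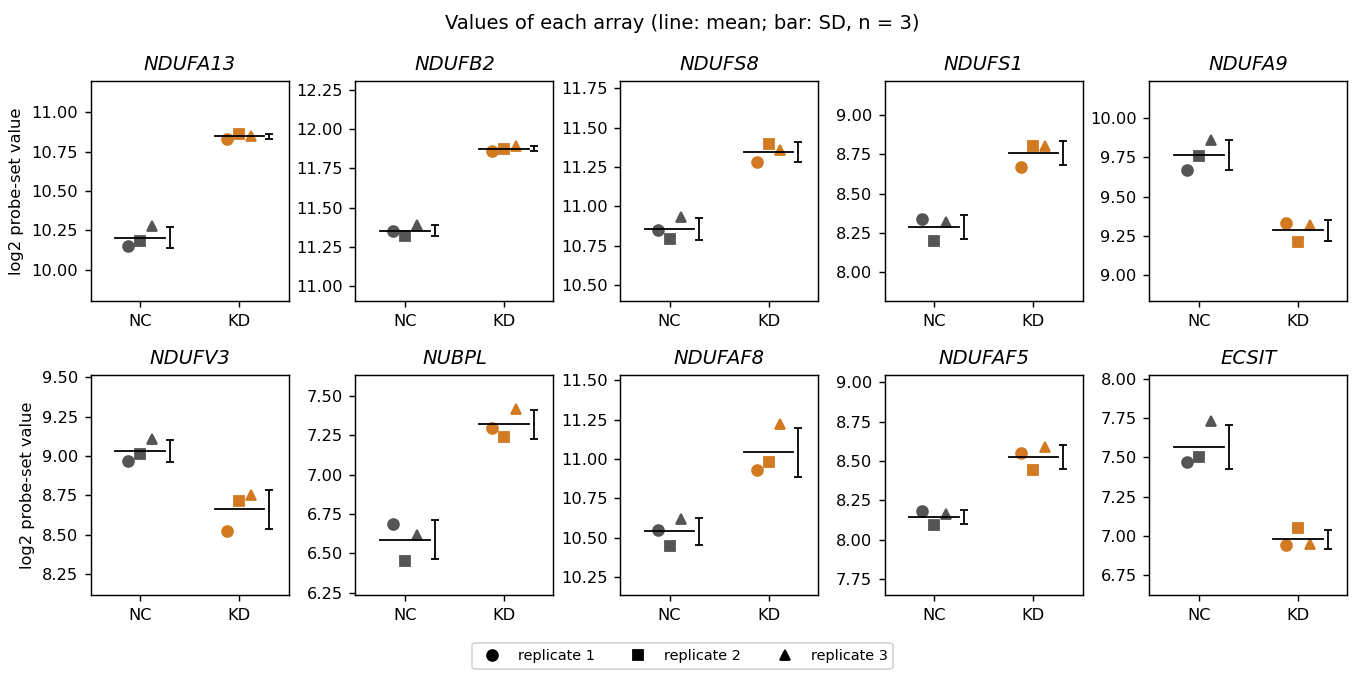
Log2 probe-set values of 6 subunits and 4 assembly factors in each NC (grey) and KD (orange) array, with the mean as a line and the SD (n = 3) as a bar; every panel spans the same number of log2 units but starts at a different level. In all 10 genes the KD points are apart from the NC points, above them for NDUFA13, NDUFB2, NDUFS8, NDUFS1, NUBPL, NDUFAF8 and NDUFAF5 and below them for NDUFA9, NDUFV3 and ECSIT.

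Of the factors that act on the Q module and on the mitochondrially encoded subunit ND1 next to it, 5 of 7 rose and 1 fell. Their median was 0.40, with 71.4% rising and 14.3% falling. Of all genes 17.6% rose and 15.9% fell, and of genes at least as bright as the dimmest complex I gene 28.8% and 26.9%. NUBPL, a P-loop protein that serves the supply of iron-sulfur clusters to complex I, read 7.30, 7.24 and 7.42 in KD and 6.69, 6.45 and 6.62 in NC. The lowest KD array was well above the highest NC array, and NUBPL was 1.66-fold higher (0.73, SE 0.092, limma adjusted p = 0.000291). Its other 3 probe sets rose as well, by 0.62 to 0.70.

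NDUFAF5, which hydroxylates an arginine of NDUFS7, and NDUFAF8, its binding partner, were both higher. NDUFAF5 read 8.55, 8.44 and 8.59 in KD and 8.18, 8.09 and 8.16 in NC, 1.30-fold higher (0.38, SE 0.079, limma adjusted p = 0.00473). NDUFAF8 read 10.93, 10.98 and 11.22 in KD and 10.55, 10.45 and 10.62 in NC, 1.41-fold higher (0.50, SE 0.099, limma adjusted p = 0.00388). Both genes had groups without overlap, with KD 3 the highest KD array in each.

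NDUFAF3 and NDUFAF4 bind each other on the early Q module, and they moved in opposite directions. NDUFAF3 read 10.07, 10.14 and 10.06 in KD and 9.74, 9.55 and 9.77 in NC, 1.32-fold higher (0.40, SE 0.087, limma adjusted p = 0.00640). NDUFAF4 read 7.84, 7.83 and 8.05 in KD and 8.25, 8.10 and 8.41 in NC and fell by 0.35 (SE 0.11, limma adjusted p = 0.0317). The groups of both genes were apart, narrowly so for NDUFAF4, where KD 3 came close to NC 2. The fall of NDUFAF4 was lost without KD 1, KD 2, NC 1 or NC 3 (adjusted p 0.0778 to 0.114), with the mean of its probe sets (0.114) and with x_at and s_at probe sets left out (0.116).

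NDUFAF7, a methyltransferase that modifies an arginine of the Q module, read 8.21, 8.34 and 8.19 in KD and 7.63, 7.61 and 8.14 in NC. NC 3 stood apart from the other NC arrays and close to KD. The gene was 1.37-fold higher (0.45, SE 0.14, limma adjusted p = 0.0352), and the call was lost without any KD array, NC 1 or NC 2 (adjusted p 0.0719 to 0.124) and with the mean of its probe sets (0.117). NDUFAF6, the remaining factor of this group, did not pass at 0.14 (limma adjusted p = 0.211).

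The factors of the mitochondrial complex I intermediate assembly (MCIA) complex and its partners, which build the proximal membrane arm, held 1 fall and 0 rises in 5. Among genes at least as bright as the dimmest complex I gene 26.9% fell and 28.8% rose. ECSIT, which also has a role in signalling from Toll-like receptors, read 6.94, 7.05 and 6.95 in KD and 7.47, 7.50 and 7.73 in NC. All KD arrays were below all NC arrays, and ECSIT fell by 0.59 (SE 0.093, limma adjusted p = 0.00109), which is 1.5-fold lower. ACAD9, an acyl-CoA dehydrogenase relative and partner of ECSIT, was at -0.17 (limma adjusted p = 0.181). The smallest changes of any factor were those of TMEM126B at 0.061 (95% interval -0.12 to 0.24), NDUFAF1 at -0.089 (-0.26 to 0.08) and TIMMDC1 at 0.096 (-0.07 to 0.26). These intervals reach past the median change of the subunits in each case but that of NDUFAF1.

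Of the factors that act late, NDUFAF2, which holds the place of the N module, read 8.76, 8.93 and 8.76 in KD and 9.22, 8.97 and 9.12 in NC. KD 2 and NC 2 nearly met, and the fall by 0.29 (SE 0.094, limma adjusted p = 0.0433) was lost without KD 1, KD 3, NC 1 or NC 3 (adjusted p 0.105 to 0.15). FOXRED1, a flavoprotein, read 7.87, 7.87 and 8 in KD and 8.05, 8.31 and 8.16 in NC, without overlap, and its change of -0.26 did not pass (limma adjusted p = 0.0567). It passed with median centring (0.0330), with trend and robust fitting (0.0261) and with dim genes left out (0.0275).

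The stretches upstream of the start of 5 genes are shown because these are the 3 largest rises and 2 largest falls among called complex I genes whose upstream stretch overlaps no annotated gene. They are from RefSeq on build GRCh38.p14, 250 bases each, read 5′ to 3′ toward the start, in lower case, with capitals for a match to 1 of 4 motifs of factors known for nuclear genes of mitochondria.
NDUFA13, chr19:19515975-19516224, plus strand: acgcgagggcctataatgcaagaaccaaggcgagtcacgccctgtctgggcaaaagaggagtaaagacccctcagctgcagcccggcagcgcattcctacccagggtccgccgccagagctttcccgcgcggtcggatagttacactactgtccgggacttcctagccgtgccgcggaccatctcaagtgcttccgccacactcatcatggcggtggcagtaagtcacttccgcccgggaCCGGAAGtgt
NDUFAF8, chr17:81239061-81239310, plus strand: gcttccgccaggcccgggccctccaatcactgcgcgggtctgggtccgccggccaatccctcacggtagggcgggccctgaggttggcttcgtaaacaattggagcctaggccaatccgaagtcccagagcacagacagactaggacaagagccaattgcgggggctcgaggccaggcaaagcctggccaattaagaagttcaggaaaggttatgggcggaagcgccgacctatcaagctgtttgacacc
NDUFA11, chr19:5903791-5904040, minus strand: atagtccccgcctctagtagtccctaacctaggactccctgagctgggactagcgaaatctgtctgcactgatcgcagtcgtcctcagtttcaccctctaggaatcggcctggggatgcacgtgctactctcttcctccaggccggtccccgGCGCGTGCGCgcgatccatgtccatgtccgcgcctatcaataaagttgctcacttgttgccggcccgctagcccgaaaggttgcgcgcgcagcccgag
ECSIT, chr19:11529135-11529384, minus strand: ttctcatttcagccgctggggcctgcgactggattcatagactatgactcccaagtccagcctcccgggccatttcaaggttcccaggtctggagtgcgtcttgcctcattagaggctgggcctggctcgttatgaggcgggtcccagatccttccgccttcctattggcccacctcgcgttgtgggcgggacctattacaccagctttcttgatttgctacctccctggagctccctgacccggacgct
NDUFV3, chr21:42893059-42893308, plus strand: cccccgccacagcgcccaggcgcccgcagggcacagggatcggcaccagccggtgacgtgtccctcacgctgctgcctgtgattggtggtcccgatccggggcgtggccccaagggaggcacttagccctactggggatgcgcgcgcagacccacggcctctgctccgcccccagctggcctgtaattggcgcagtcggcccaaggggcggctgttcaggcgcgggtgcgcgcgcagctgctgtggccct
The motifs were the NRF1 core motif, CCGGAAG (ETS factors such as GABP), AAGATGGC (YY1) and TCAAGGTCA (estrogen-related receptor alpha), searched on both strands. The NDUFA11 stretch held the NRF1 letters and the NDUFA13 stretch the ETS letters. The other 3 stretches held none of the 4.

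Promoter windows of 300 bases (250 before to 50 after a start) were found for 44 of the 50 genes, with 58 windows in all. The NRF1 letters were in 8 of 58 windows (13.8%), against 7.68% of 20496 windows of genes on the array. The YY1 letters were in 9 (15.5%), against 3.61%, and the ETS letters in 9 (15.5%), against 13%. The estrogen-related receptor letters were in 0, against 0.224%. Windows of 1 gene overlap in part, and a match describes these letters only. Among the 23 windows of genes that rose, the NRF1, ETS and YY1 letters were each in 5 (21.7%). In the 6 windows of genes that fell they were each in 1 (16.7%). In the 29 windows of genes that did not pass they were in 2 (6.9%), 3 (10.3%) and 3 (10.3%). These sets were chosen by the KD against NC result, and the differences were not tested.

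Of 36 subunits 27, 28 and 29 lay above their NC mean in KD 1 to KD 3, but so did 19, 4 and 34 in NC 1 to NC 3, so the number above the mean does not set KD apart from NC 3. The mean over the 36 subunits of the difference from each gene's NC mean was 0.14, 0.18 and 0.18 in KD, and 0.009, -0.072 and 0.062 in NC. The mean over the 14 factors was 0.060, 0.068 and 0.092 in KD, and -0.014, -0.057 and 0.071 in NC. The KD means of the subunits were above all NC means, while NC 3 exceeded KD 1 and KD 2 in the factors. NC 2 was the lowest NC array in 26 of 36 subunits (72.2%), against 37.6% of all genes, and NC 3 in 1. Without NC 2 the median change of the subunits was 0.13 in place of 0.19.

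**Figure D3:**
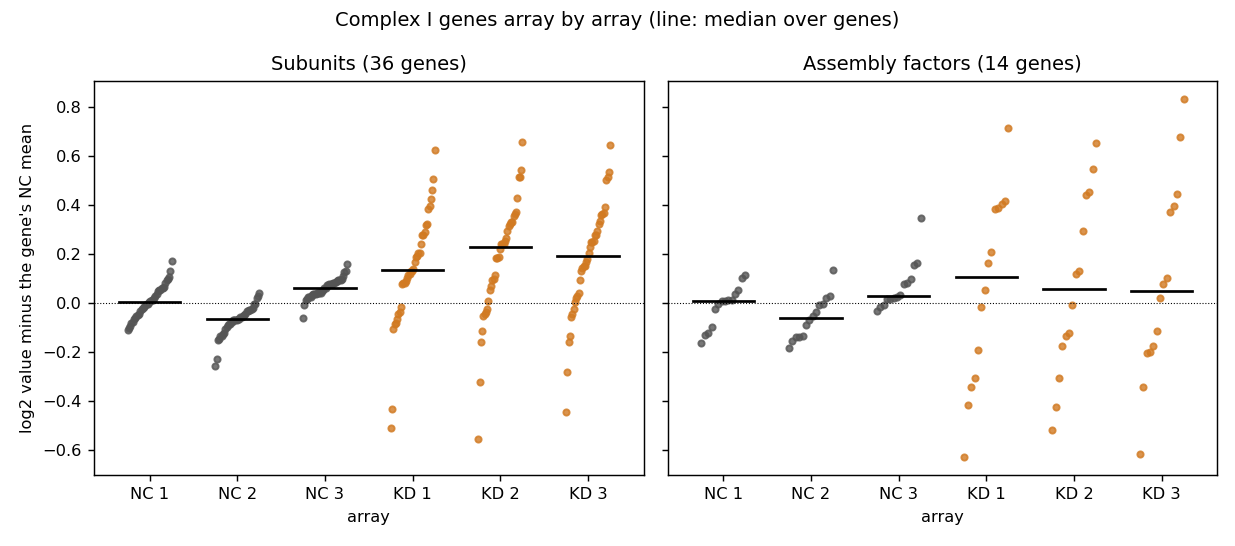
Each gene's log2 value minus its own NC mean (vertical axis) in each of the 6 arrays, for subunits (left) and assembly factors (right), with points sorted by size within an array and the median as a line. The subunit medians of KD 1 to 3 lie at 0.14, 0.23 and 0.19, above those of NC 1 to 3 at 0.006, -0.066 and 0.062, and the factors spread to both sides in KD.

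A gene's other probe sets bear on whether its brightest one is read alone. Of the 24 called genes 18 had other probe sets, 38 in all. When all 49395 probe sets were tested together (30.5% called), 21 of the 38 had the same call as the brightest, 17 did not pass and 0 had the opposite call. Among the 19 with a mean level of at least 7, a limit set after seeing the data, 16 had the same call. NDUFA10, NDUFA11, NDUFAF3, NDUFAF8 and NUBPL had the same call in all of their probe sets, as did NDUFV3.

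NDUFA13 had a second bright probe set that rose by 0.64, and 4 dim ones with group means of 3.74 to 5.00 that changed by -0.14 to 0.01 and did not pass. Both bright probe sets have s_at or x_at suffixes, and the settings that lost the call of NDUFA13 weigh all 6 probe sets equally or leave these out. NDUFS5 changed to -0.04 (limma adjusted p = 0.845) with x_at and s_at probe sets left out, where only its dim probe set was left, and NDUFB9 to 0.20 (adjusted p = 0.106). NDUFA8 and NDUFS5 did not pass with the mean of their probe sets, at 0.06 (0.624) and 0.13 (0.272). TMEM126B, not called by its brightest probe set, had 1 dim probe set of 4 that fell by 0.64 (limma over all probe sets, adjusted p = 0.00248). FOXRED1, also not called by its brightest probe set, had another that read 7.12, 6.99 and 7.08 in KD and 7.43, 7.33 and 7.53 in NC and fell by 0.36 (limma over all probe sets, adjusted p = 0.0116). A second NDUFB4 probe set had the same values as the brightest one, and a pair of ACAD9 probe sets had identical values, so these add no further reading.

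**Figure D4:**
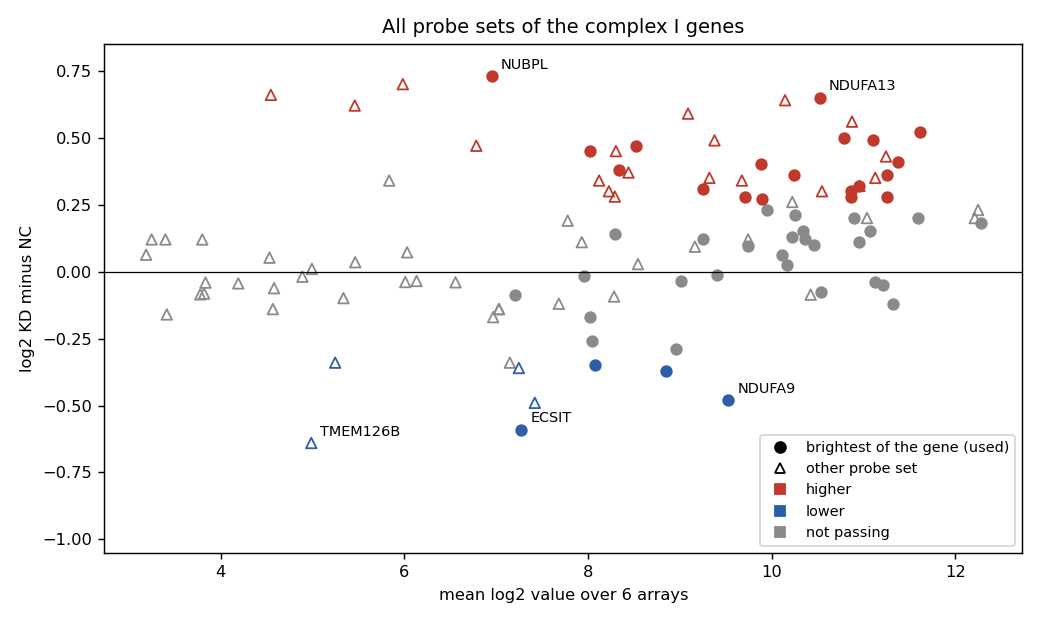
Each of the 110 probe sets of the complex I genes by its mean log2 value over 6 arrays (horizontal axis) and its log2 KD minus NC (vertical axis), coloured by its call in a test over all 49395 probe sets; filled circles are the brightest of each gene and open triangles the others. Most probe sets with a mean under 6 lie near 0, the 3 dim ones of NUBPL and 1 of TMEM126B being among the exceptions, and NDUFAF2 is grey here (adjusted p = 0.0514).

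Genes that complex I depends on or works with moved in both directions. Of 10 further factors of complex I assembly that the rule does not include, 4 fell (40%) and 1 rose (10%). Of all genes 15.9% fell and 17.6% rose. Genes at least as bright as the dimmest complex I gene fell in 26.9% and rose in 28.8%. DMAC2, of the distal membrane arm, read 7.53, 7.53 and 7.45 in KD and 8.51, 8.47 and 8.67 in NC, a 2.07-fold lower level (limma adjusted p = 2.33e-05). TMEM186, an MCIA component like ECSIT, read 6.80, 6.80 and 6.86 in KD and 7.62, 7.81 and 7.82 in NC, 1.90-fold lower (limma adjusted p = 4.9e-05). In both the groups were far apart. TMEM126A and TMEM70, both of the membrane arm's assembly, were 1.5-fold and 1.45-fold lower, and LYRM2, named after its value was seen, was 1.27-fold higher, a call lost without KD 1, KD 3 or NC 3 and with the mean of its probe sets.

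Of 12 measured genes of iron-sulfur cluster synthesis, of which complex I is a large consumer, 2 rose (16.7%) and 4 fell (33.3%). Of all genes 17.6% rose and 15.9% fell. Among genes at least as bright as the dimmest complex I gene the shares were 28.8% and 26.9%. ISCU, the scaffold on which clusters are made, was 1.71-fold higher (limma adjusted p = 6.19e-05) and FDX2, its electron donor, 1.30-fold. ISCA1, which acts late in making 4Fe-4S clusters, was 1.79-fold lower (limma adjusted p = 0.000197), and NFS1, the cysteine desulfurase, 1.31-fold lower. The falls numbered 2 without any 1 of the KD arrays, NC 1 or NC 3, and with x_at and s_at probe sets left out 1 fell and 1 rose.

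In complex III, which takes electrons from ubiquinol, 7 of 13 genes rose (53.8%) and 2 fell (15.4%, near the 15.9% of all genes). The share that rose was 17.6% of all genes and 28.8% of genes at least as bright as the dimmest complex I gene. The assembly factors UQCC3 and BCS1L were 1.70-fold and 1.33-fold lower, and 2 further assembly factors, UQCC1 and TTC19, named after their values were seen, were 1.32-fold and 1.25-fold higher. The subunits UQCRB and UQCRC1 were 1.35-fold and 1.32-fold higher. The complex III rises numbered 4 with the mean of probe sets. In complex IV, cytochrome c oxidase, 4 of 10 subunits rose (40%, against the same 17.6% and 28.8%) and 0 fell. The rises were led by COX6B1 (1.26-fold), and 8 rose with trend and robust fitting. In ATP synthase 3 of 17 subunits rose, the same 17.6% as of all genes, and 0 fell, with ATP5ME 1.37-fold higher. The ATP synthase rises numbered 1 without KD 2, KD 3 or NC 3, 6 with trend and robust fitting, and 5 with the mean of probe sets or without dim genes. With trend and robust fitting, and with x_at and s_at probe sets left out, 1 ATP synthase subunit fell. The medians were 0.29, 0.22 and 0.10, against 0.19 for the complex I subunits, and the difference between complexes was not tested.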

How the data were processed

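The values are the authors' deposited table of log2 probe-set values for 6 Affymetrix arrays, hybridised per the labels' protocols with biotin-labelled cRNA from 6 ug of total RNA. Base 2 was inferred from the values, which run from 2.05 to 14.32. Summarisation, background correction and normalization by the submitters are not given in the sources used here. Fold changes may therefore be compressed. They may also be relative to the typical gene, since the array medians ran only from 5.49 to 5.55. Samples were grouped by title.

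Names came from the platform's annotation (45278 with 1 symbol, 1333 several, 2682 none, 102 controls). Of the 45278, 45208 had an identifier in RefSeq GRCh38.p14, which changed 0 symbols. Each of 18244 genes took its brightest probe set, with no filter on dim genes. The test was limma 3.58.1 in R 4.3.3 (two-sided, group as the only term, Benjamini-Hochberg over 18244 genes, threshold 0.05). Named genes were the called members, the 3 least changed subunits and factors, and up to 4 called genes of each other list. The members and lists were chosen with earlier results of these data known. Module assignments follow common usage. The alternatives were quantile normalization, median centring, trend and robust fitting, array weights, a replicate block, the mean of probe sets, leaving out x_at and s_at probe sets or genes below the 40th percentile of level, and leaving out each array. Pseudocounts for linear values did not apply. Figures were drawn with matplotlib 3.10.9.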

Additional observations from a re-analysis of the deposited data

Results flagged for a closer look

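One probe set annotated with 3 symbols at once, DYNC1I2, HNRNPM and the mitochondrially encoded complex I subunit ND1, was outside the gene comparison and was higher in KD than in the control arrays. It read 13.04, 13.13 and 13.20 in KD and 12.49, 12.46 and 12.64 in NC, a difference of 0.59 (SE 0.089, limma over all probe sets, adjusted p = 0.000873). Which of the 3 genes it read was not tested.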

How the results depend on the processing

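Of the 24 called complex I genes, 12 kept their call under all 14 alternatives (ECSIT, NDUFA11, NDUFA3, NDUFA9, NDUFAF3, NDUFAF5, NDUFAF8, NDUFB2, NDUFS1, NDUFS4, NDUFS8 and NUBPL), and NDUFA13 kept it without any 1 array. NDUFS5 was the 1 that changed sign, to -0.04 with x_at and s_at probe sets left out, where only its dim probe set remained. With arrays left out in turn, 7 to 15 subunits rose and 1 to 2 fell, 4 to 5 factors rose and 1 to 3 fell, and 4955 to 6746 genes of all were called; the median change was 0.13 to 0.21 for subunits and 0.056 to 0.087 for factors. The median of the factors became -0.014 with the mean of probe sets, where dim probe sets weigh equally, and 0.12 with x_at and s_at probe sets left out, where the falling factors numbered 1 (13 factors measured); the cause was not tested. The rising subunits numbered 11 with median centring, 20 with trend and robust fitting and 10 (of 32 measured) with x_at and s_at probe sets left out. The replicate numbers are not said to pair the samples. Deviations from the group means of the same-numbered arrays correlated at 0.254, 0.265 and -0.0963. KD replicate 1 correlated best with NC replicate 3 (0.286), and KD replicates 2 and 3 with NC replicate 2 (0.265 and 0.155). With 3 arrays a group these correlations are not independent and cannot decide whether samples were paired. With the replicate block 14 subunits rose and 2 fell, 5 factors rose and 2 fell (NDUFAF2 had an adjusted p of 0.0659), and 6276 genes were called against 6110. With 3 arrays a group, the number of arrays limits the precision, and no signal over background was used here.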

Other observations

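Another probe set outside the gene comparison, annotated with DCAF6 and the mitochondrially encoded subunit ND4, read 13.95, 13.95 and 13.94 in KD and 13.84, 13.79 and 13.87 in NC (0.11, limma over all probe sets, adjusted p = 0.347). The probe set shared by NDUFB8 and SEC31B changed by 0.12 (adjusted p = 0.362) and the one shared by NDUFA13 and YJEFN3 by -0.03 (adjusted p = 0.849, limma over all probe sets). The latter did not follow the rise of the 2 bright probe sets annotated to NDUFA13 alone.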
